A study of Mus musculus with 6 samples.

Results

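The genes described here encode the proteins of the cytosolic ribosome. A gene was taken as a member when a non-control probe on the array carries an accession that RefSeq maps to a symbol made of Rpl, Rplp or Rps and a number, with at most 1 further letter. Names marked as pseudogenes and the Rps6k kinases were left out. This gave 81 genes, 50 of the large and 31 of the small subunit, with 143 probes, of 23462 named genes and 56605 probes. The samples were acinar cells isolated from the pancreas of C57BL/6 mice, 3 per group, each on its own 1-colour array. Both groups carry Ptf1aCre, which makes Cre recombinase in the pancreatic lineage, and an oncogenic G12D allele that Cre switches on. With these alone they are called KC. KCS samples carry in addition Setdb1flox/flox, 2 copies of a histone H3 lysine methyltransferase gene that Cre can recombine. The series title asks whether Setdb1 is needed for pancreatic cancer through its effect on cell death that depends on p53. Ptf1aCre acts in the progenitors of the pancreas, so that duct and islet cells carry the recombined alleles as well, while stromal and blood cells do not, and the extent of recombination was not measured here. No sample without the oncogenic allele or without Cre was compared. Whether the samples of a group are different animals is not stated in the labels, so the p-values measure the spread between samples, which may be in part technical.

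The ribosome translates mRNA into protein. Its small subunit threads and decodes the mRNA, and its large subunit joins amino acids and passes the growing chain through an exit tunnel. Acinar cells make and secrete digestive enzymes in large amounts and are rich in ribosomes on the endoplasmic reticulum. Ribosomal protein mRNAs of vertebrates share a 5′ terminal oligopyrimidine tract (TOP), a C at the first base followed by a run of C and T, through which mTOR signalling controls their translation. Several ribosomal proteins that are not built into ribosomes bind MDM2, the ubiquitin ligase that keeps p53 low.

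RefSeq promoter sequences of GRCm38.p6 were matched to 60 of the 81 genes, with 72 annotated starts. The start base was a C followed by at least 4 further C or T on the sense strand in 14 of the 72 (19.4%), beside 2.51% of all 32851 promoters in the table. Within 25 bases either side of the start such a tract was found in 79.2% of the members' promoters and in 53.6% of all promoters. This definition of the tract was chosen after the sequences had been seen, it was searched on the sense strand alone, and overlapping matches counted once per promoter. The windows below show 30 bases before the annotated start and 15 from it onwards, 5′ to 3′, with the tract in capitals, for 4 genes that the results return to: the small subunit genes Rps18 and Rps27, the stalk gene Rplp2 and the exit tunnel gene Rpl35.
Rps18 (chr17:33955651-33955695, minus strand): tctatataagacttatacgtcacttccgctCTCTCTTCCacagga
Rps27 (chr3:90213634-90213678, minus strand): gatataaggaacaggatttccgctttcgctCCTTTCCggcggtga
Rplp2 (chr7:141447621-141447665, plus strand): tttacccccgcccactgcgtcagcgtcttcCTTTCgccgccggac
Rpl35 (chr2:39005117-39005161, minus strand): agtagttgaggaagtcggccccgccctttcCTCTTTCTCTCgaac
On the scale described next the median log2 fold change of KCS over KC was -1.47 over 14 genes with one and -1.38 over 43 genes without a tract at the annotated start.

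A level in this text is the log2 of a probe's processed signal minus the 75th percentile of the array's non-control probes, in log2 units, and a fold change is the KCS mean minus the KC mean of these levels. The arrays of the 2 groups differed widely in their overall signal. The 75th percentile itself was 61.2 to 68.6 scanner units for KC and 347 to 423 for KCS, and 26550 to 27235 against 35365 to 35920 probes were well above background. Setdb1 had levels of -0.91, -1.05 and -0.32 in KC and -0.28, -0.44 and -0.55 in KCS (fold change 0.33 ± 0.24, SE, adjusted p = 0.27, limma). Where its probe lies relative to the loxP sites is not known here, so this value checks no label. Markers of acinar cells were lower in KCS for 14 of 14 genes, with a summed level (the sum of unlogged levels) of 33839 to 40303 in KC and 3.77 to 2137 in KCS. Their signal was 7.05% to 7.84% of the summed signal of tested rows in KC and 0.0017%, 0.0091% and 1.0% in KCS replicates 1 to 3, so that KCS replicate 3 stood apart from the other KCS samples. The median level of these markers was 11.3 to 11.6 in KC and -4.39, -2.39 and 6.38 in KCS, so that the markers that define the labelled cell type were far lower in KCS replicates 1 and 2 than in any other sample. Macrophage markers were higher for 10 of 12 genes (summed level 62.8 to 88.0 in KC, 379 to 494 in KCS), fibroblast and stellate cell markers for 10 of 10 (206 to 276 against 1151 to 1440), endothelial markers for 5 of 6 (12.2 to 14.4 against 23.4 to 40.7) and ductal markers for 4 of 8, with 1 lower (55.4 to 75.5 against 273 to 354). Of the islet markers 5 of 6 were lower (862 to 984 against 124 to 219), of the lymphocyte markers 3 of 6 tested were lower (10.4 to 20.5 against 2.68 to 7.72), and of 6 proliferation genes 3 were higher (9.69 to 18.1 against 16.8 to 28.1). Over all rows tested 34.4% were called lower and 25.9% higher on this scale (limma, adjusted p below 0.05). The lymphocyte and proliferation counts rest on 6 genes each. With spike-in scaling 14 acinar, 0 islet and 0 lymphocyte markers were lower, beside 2.85% of all rows. After quantile normalization 11, 5 and 3 were lower, beside 29.3% of all rows. Among the markers at background on all 3 KC arrays were Fcgr1, Cd8a and Ms4a1, and no marker was at background on all 3 KCS arrays. Fcgr1 is 1 of the 10 macrophage markers counted as higher, and its KC level is only a bound. These are bulk samples, in which fewer cells of a type and less RNA per cell cannot be told apart, and the part of the cell makeup in the values of the ribosomal protein genes was not tested.

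Whether the ribosomal protein genes were lower or higher in KCS depended on how the arrays were scaled to each other. Scaled to the 75th percentile, 46 of 47 tested large subunit genes and 30 of 31 small subunit genes were lower in KCS, but the same genes lay around 0 after quantile normalization and were higher with scaling to the spike-in controls. On the 75th percentile scale the median log2 fold change was -1.41 for the large and -1.42 for the small subunit, beside -0.19 over all 27096 rows tested. Over all rows 34.4% were called lower and 25.9% higher (limma, adjusted p below 0.05). These shares include rows at background on every array of 1 group. With the filter on all 6 arrays 4729 rows were higher and 8163 lower, instead of 7017 and 9331. Of the 78 tested members 77 stood above background in both groups, and all 77 were called, 76 lower and 1 (Rps4l) higher, with adjusted p from 0.000166 to 0.00805. The remaining one, Rpl39l, was at background on every KC array and passed the filter through its KCS arrays, so its call is no measure of a change. The groups did not overlap in these 76 and in Rps4l, which happened in 38.4% (lower) and 29.8% (higher) of all rows. The 76 lower members lay between -2.25 and -0.76, with an SD of 0.34 among them.

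**Figure D1:**
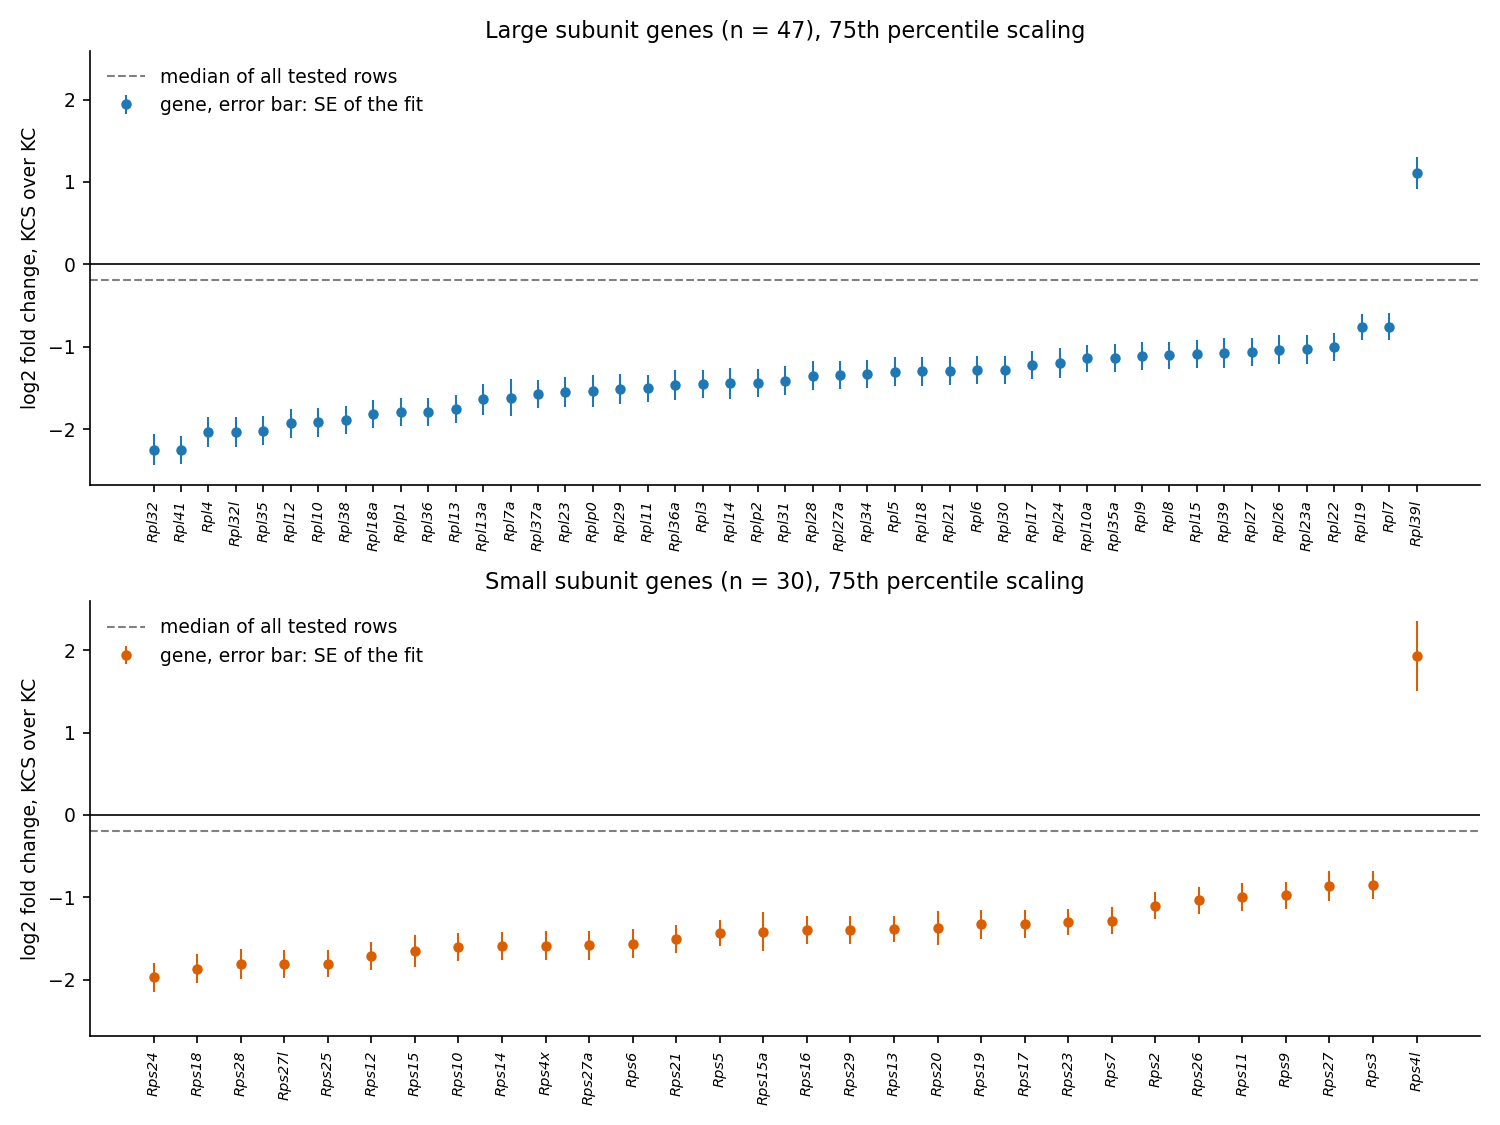
Log2 fold change of KCS over KC for each tested gene of the large (47) and for 30 of the 31 of the small subunit, scaled to the 75th percentile; points are fitted values, bars their SE, and the dashed line is the median of all tested rows (-0.19). On this scale all genes shown except Rpl39l and Rps4l lie below the dashed line, between -2.25 and -0.76. Rpl39l was at background on every KC array. After quantile normalization the lower genes lie between -0.97 and 0.78, on both sides of 0. With spike-in scaling the medians of both subunits are 1.48, above 0 but below the median of all tested rows (2.70).

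The members' median level on the 75th percentile scale was 8.50, 8.47 and 8.32 in KC and 7.11, 7.04 and 7.23 in KCS. The 3 KCS arrays therefore lay below the 3 KC arrays by more than a unit, while arrays of a group differed by at most 0.19. Their unscaled signal ran the other way, with medians of 24162, 24259 and 19601 scanner units in KC and 54307, 55556 and 52135 in KCS. Their rank on the array hardly moved: the median member stood at the 99.46th, 99.50th and 99.48th percentile of all probes in KC and at the 99.49th, 99.54th and 99.55th in KCS. The summed signal of the members was 7.08% to 7.74% of that of all tested rows in KC and 5.87% to 6.12% in KCS. With the 100 brightest other rows left out these shares were 11.6% to 12.2% in KC and 6.84% to 7.24% in KCS.

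**Figure D2:**
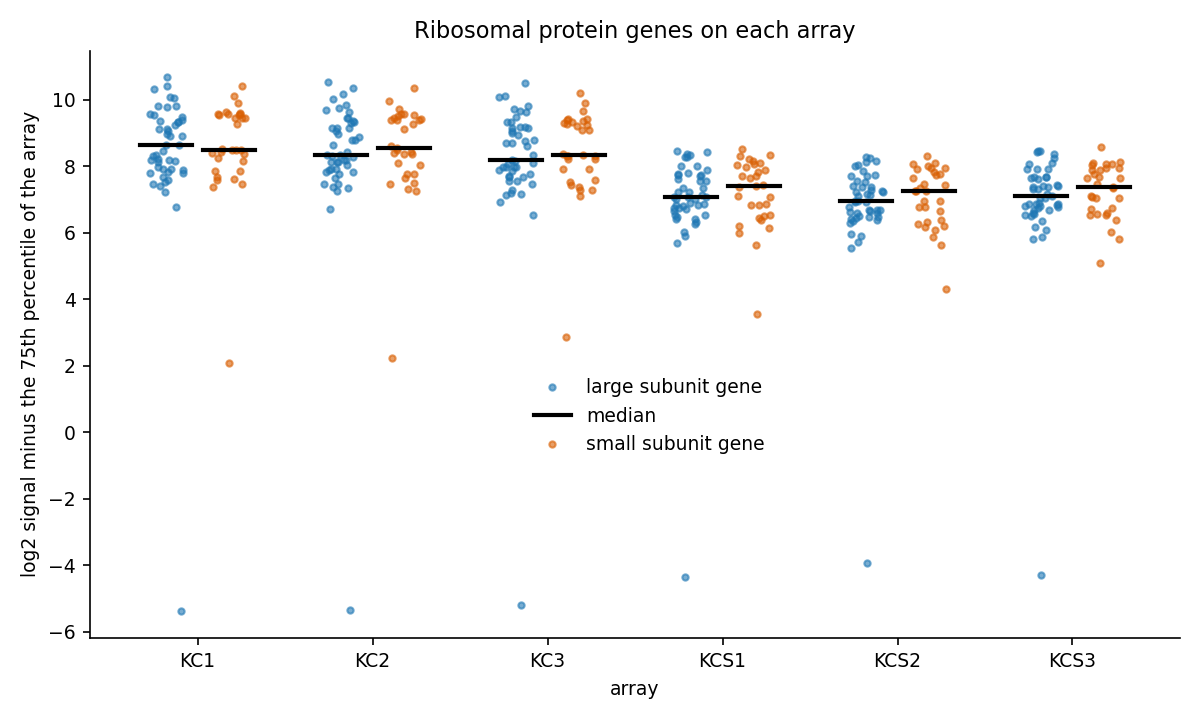
Level (log2 signal minus the 75th percentile) of each tested gene on the 6 arrays, with large and small subunit genes side by side and black bars at their medians. On this scale the medians are 8.18 to 8.64 for the KC and 6.95 to 7.41 for the KCS arrays, and the isolated points are Rps4l (small) and Rpl39l (large, at background on the KC arrays); under quantile normalization and spike-in scaling the KCS values are not lower as a group.

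Centring each array on its median instead left 44 large and 28 small subunit genes lower, with medians of -1.06 in both subunits. The 4 members whose call was lost were Rpl7, Rpl19, Rps3 and Rps27. All rows then had a median of 0.16, with 26% lower and 33.8% higher. After quantile normalization, which gives every array the same distribution, the medians were -0.025 and 0.082, beside -0.015 over all rows. Of the 78 members 19 were then higher and 6 lower, beside 29.1% higher and 29.3% lower of all rows. With scaling to the median signal of the spike-in controls, 45 large and 31 small subunit genes were higher and none was lower. The medians were 1.48 in both. The counts of higher genes on these 2 scales include Rpl39l, which was at background on every KC array, so that its call is no measure of a change. All rows had a median of 2.70 on that scale, with 87.2% higher and 2.85% lower, so that the members stood below the median row by 1.22 there as with the 75th percentile and the median. Whether equal amounts of RNA and of spike-in controls went into each reaction is not known here. For any scaling by 1 constant per array the differences between members stay the same by construction.

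**Figure D3:**
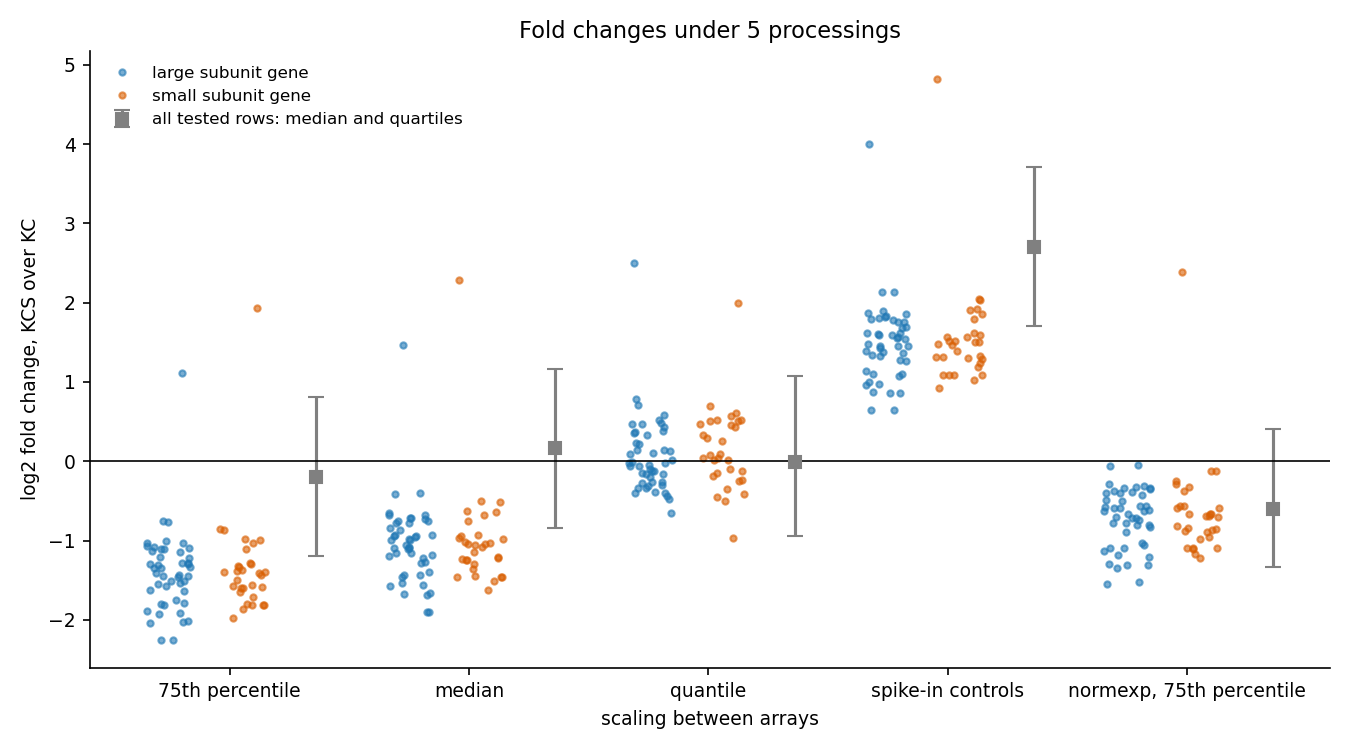
Log2 fold change of KCS over KC of each tested member under 5 ways of processing the arrays, with the median and quartiles of all tested rows as grey squares and bars. The members' medians go from about -1.4 with the 75th percentile to about 0 with quantile normalization and 1.48 with spike-in scaling, while Rps4l stays above 0 in all 5. Rpl39l, plotted as fitted, was at background on every KC array and has no measured direction.

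Bright probes as a class were lower in KCS on the 75th percentile scale. The 76 lower members had mean levels over the 6 arrays from 6.18 to 9.44. The 624 other rows within that range, a range taken after the data were seen, had a median log2 fold change of -1.34, with quartiles of -1.63 and -0.92, and 508 of them (81.4%) were called lower and 49 higher. After quantile normalization their median was -0.14. Among the 76 members the brighter ones had the larger fall, with r = -0.57 and rho = -0.59 across genes between mean level and fold change. After quantile normalization that relation had the opposite sign (r = 0.55). The same 6 arrays enter every gene, so these correlations are a description.

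**Figure D4:**
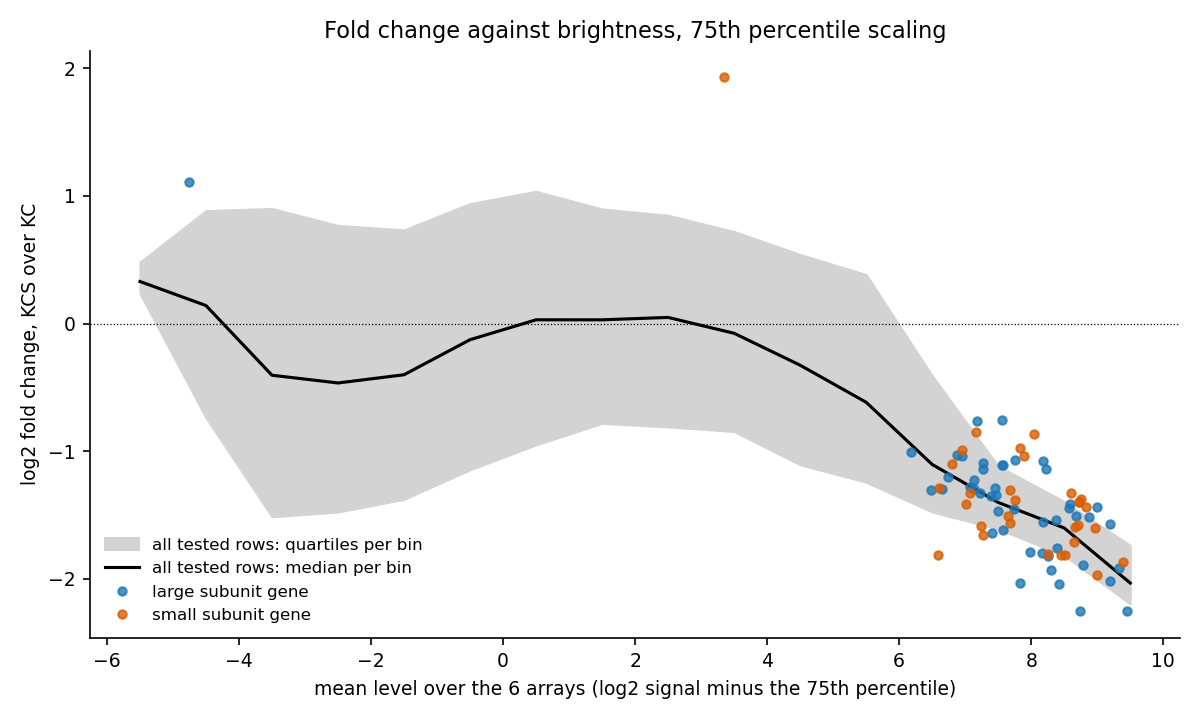
Log2 fold change of KCS over KC against the mean level over the 6 arrays, both on the 75th percentile scale, with the median (line) and quartiles (grey) of all tested rows in bins 1 unit wide and each member as a point. In the bins from 7 to 8 and from 8 to 9 the median row is at -1.40 and -1.60, and most members lie close to the line. The line includes the members, which make up 31 of 231 and 29 of 117 rows in these bins. The order of fold changes by brightness does not hold under quantile normalization.

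The fall on the 75th percentile scale was of like size on both slides. On the first slide, with 1 array of each group and compared after the data were seen, the median difference was -1.44 for the large and -1.46 for the small subunit, and on the second slide, with 2 arrays of each, -1.36 and -1.42. Across the 76 members the differences on both slides correlated with r = 0.955 and rho = 0.948, again as a description. Without KCS replicate 3, in which acinar transcripts were highest among KCS, the medians were -1.45 and -1.45, and 46 and 30 genes were still called lower. The spread between arrays of a group was small for the members, with a median SD of 0.13 in KC and 0.11 in KCS.

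Among large subunit genes the largest falls on the 75th percentile scale were those of Rpl32, Rpl41, Rpl4 and Rpl32l; with spike-in scaling Rpl4 and Rpl32l were called higher, and Rpl32 and Rpl41 were at 0.64 and 0.65, the only members not called. Rpl32, a structural protein of the large subunit, had levels of 10.05, 9.83 and 9.74 in KC and 7.79, 7.41 and 7.66 in KCS (-2.25 ± 0.19, SE). Rpl32l, a near copy of Rpl32 whose probe may share its signal, had 9.06, 8.79 and 8.69 in KC and 6.89, 6.70 and 6.86 in KCS (-2.03 ± 0.18). Rpl32l was also called lower after quantile normalization (-0.65), while Rpl32 was at -0.43 without a call. Rpl41, which encodes a very short basic protein, had 10.67, 10.54 and 10.50 in KC and 8.37, 8.17 and 8.43 in KCS (-2.25 ± 0.17), but 0.15 after quantile normalization. The smallest changes were those of Rpl7 and Rpl19. Rpl7 had 7.93, 8.03 and 7.86 in KC and 7.08, 7.16 and 7.30 in KCS (-0.76 ± 0.17). Rpl19, at the rim of the exit tunnel, had 7.58, 7.65 and 7.46 in KC and 6.81, 6.76 and 6.83 in KCS (-0.76 ± 0.16). Both were called higher after quantile normalization, at 0.58 and 0.43, so that these 2 genes were lower on one scale and higher on the other. In each of these genes the KC and KCS arrays did not overlap on the 75th percentile scale.

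The stalk of the large subunit recruits the GTPases of translation, and is built from Rplp0, Rplp1 and Rplp2 on a base that Rpl12 adjoins. Rplp0 had levels of 9.33, 9.14 and 8.94 in KC and 7.73, 7.39 and 7.68 in KCS. Rplp1 had 9.12, 9.05 and 9.01 in KC and 7.23, 7.14 and 7.42 in KCS. In both, the 3 KCS arrays lay below the 3 KC arrays on this scale. Rplp2 had 9.79, 9.74 and 9.63 in KC and 8.34, 8.13 and 8.38 in KCS. Rpl12 had 9.49, 9.14 and 9.15 in KC and 7.34, 7.25 and 7.40 in KCS. All 4 were lower on the 75th percentile scale, as were 76 of the 78 tested members, beside 34.4% of all rows. The fold changes of the 4 were -1.54 ± 0.19, -1.80 ± 0.17, -1.44 ± 0.17 and -1.93 ± 0.18 in that order. After quantile normalization Rplp2 was called higher (0.71) and the other genes were not called, with Rpl12 at -0.34. With spike-in scaling all 4 were higher, Rplp2 at 1.46 and Rpl12 at 0.97, beside 87.2% of all rows, whose median was 2.70.

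The proteins that line the peptide exit tunnel or surround its mouth were lower in 9 of 9 genes on the 75th percentile scale, with a median of -1.08. Over all tested members 76 of 78 were lower, beside 34.4% of all rows. With spike-in scaling 9 of 9 tunnel genes were higher, beside 87.2% of all rows. Rpl4, which reaches into the tunnel, had 9.57, 9.45 and 9.32 in KC and 7.61, 7.23 and 7.39 in KCS (-2.04 ± 0.18), and Rpl35, at the rim, had 10.33, 10.19 and 10.09 in KC and 8.29, 8.01 and 8.25 in KCS (-2.02 ± 0.18). Rpl39, a small protein of the tunnel wall, had 8.91, 8.63 and 8.60 in KC and 7.72, 7.51 and 7.68 in KCS (-1.08 ± 0.18). Rpl4 and Rpl35 therefore fell on this scale by about 1 unit more than Rpl39, and after quantile normalization they were at -0.39, 0.14 and 0.52, the last called higher. Rpl17 had 7.83, 7.83 and 7.55 in KC and 6.48, 6.46 and 6.61 in KCS. Rpl23a had 7.52, 7.48 and 7.20 in KC and 6.32, 6.28 and 6.50 in KCS. Rpl31 had 9.39, 9.34 and 9.17 in KC and 8.01, 7.73 and 7.93 in KCS. Their fold changes were -1.22 ± 0.17, -1.03 ± 0.18 and -1.41 ± 0.17, and none was called after quantile normalization. Rpl26 had 7.67, 7.47 and 7.30 in KC and 6.54, 6.42 and 6.36 in KCS (-1.04 ± 0.18). Rpl22 had 6.79, 6.73 and 6.53 in KC and 5.70, 5.53 and 5.81 in KCS (-1.0 ± 0.18), again with no overlap of the groups.

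Among small subunit genes the largest falls on the 75th percentile scale included those of Rps24, Rps18 and Rps28, which were higher with spike-in scaling. Rps18, in the head of the small subunit, had levels of 10.41, 10.37 and 10.21 in KC and 8.51, 8.31 and 8.58 in KCS (-1.87 ± 0.17), and was called higher after quantile normalization (0.61). Rps28 had 9.58, 9.39 and 9.27 in KC and 7.70, 7.46 and 7.64 in KCS (-1.81 ± 0.18) and was not called after quantile normalization, at -0.10. The smallest changes were those of Rps3 and Rps27. Rps3 and Rps2 are at the mRNA entry channel, with levels for Rps3 of 7.69, 7.66 and 7.44 in KC and 6.82, 6.66 and 6.75 in KCS, and for Rps2 of 7.46, 7.32 and 7.28 in KC and 6.20, 6.17 and 6.38 in KCS. Their fold changes were -0.85 ± 0.17 and -1.10 ± 0.17, and they were at 0.33 and 0.046 without a call after quantile normalization.

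Of the ribosomal proteins reported to bind MDM2, 14 of 14 tested genes were lower on the 75th percentile scale (median -1.44). This is near the 76 of 78 over all tested members (median -1.41), beside 34.4% of all rows. After quantile normalization 2 of the 14 were higher and 4 lower (median 0.14), beside 29.1% and 29.3% of all rows. With spike-in scaling all 14 were higher, beside 87.2% of all rows. Rpl5 and Rpl11 bind MDM2 together with 5S rRNA and are the best described of them. Rpl5 had 7.23, 7.24 and 6.94 in KC and 5.91, 5.72 and 5.87 in KCS (-1.30 ± 0.18). Rpl11 had 9.54, 9.45 and 9.32 in KC and 8.0, 7.86 and 7.93 in KCS (-1.51 ± 0.16). After quantile normalization Rpl5 was called lower (-0.48) and Rpl11 was not called (0.36). Rpl23 had 9.11, 8.98 and 8.77 in KC and 7.57, 7.27 and 7.36 in KCS (-1.55 ± 0.18), and Rpl26, which also binds the p53 mRNA, is described above. Rps7 had 7.37, 7.26 and 7.11 in KC and 6.0, 5.88 and 6.01 in KCS (-1.29 ± 0.17). Rps15 had 8.25, 8.11 and 7.92 in KC and 6.50, 6.22 and 6.60 in KCS (-1.65 ± 0.19). These 2 were also called lower after quantile normalization, at -0.41 and -0.50. Rps14 had 9.53, 9.53 and 9.33 in KC and 7.89, 7.76 and 7.96 in KCS (-1.60 ± 0.17), and Rps25 had 9.27, 9.11 and 9.09 in KC and 7.44, 7.25 and 7.35 in KCS (-1.80 ± 0.16). Neither was called after quantile normalization, at 0.26 and -0.23. Rps26 had 8.50, 8.41 and 8.30 in KC and 7.38, 7.26 and 7.46 in KCS (-1.04 ± 0.17) and was called higher after quantile normalization (0.43). Rps27a, which encodes a ubiquitin fused to a ribosomal protein, had 9.56, 9.57 and 9.38 in KC and 7.97, 7.74 and 8.06 in KCS (-1.58 ± 0.18), and Rps20 had 9.57, 9.39 and 9.36 in KC and 8.35, 8.09 and 7.76 in KCS (-1.37 ± 0.21). In all of these the KC and KCS arrays did not overlap on the 75th percentile scale. Of 19 genes mutated in Diamond-Blackfan anaemia, an inherited failure of red cell production, 19 were lower on that scale (median -1.33). This too is near the count over all members. After quantile normalization 5 of the 19 were higher and 2 lower, and with spike-in scaling 19 were higher, beside the shares of all rows given above.

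Few members kept their direction and call after quantile normalization. There 6 were lower: Rps27l at -0.97, Rpl32l at -0.65, Rps15 at -0.50, Rpl5 at -0.48, Rps4x at -0.45 and Rps7 at -0.41. These 6 were lower on the 75th percentile scale too, and higher with spike-in scaling. Of the 19 that were higher after quantile normalization, 17 were lower on the 75th percentile scale, with Rpl37a (0.78), Rplp2 and Rps27 (0.70) at the top. The remaining 2 were Rps4l and Rpl39l, the latter at background on every KC array. Over the 76 members the fold changes on the 75th percentile scale and after quantile normalization correlated with r = 0.35 and rho = 0.30.

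Some ribosomal proteins have a second gene copy that is used in particular tissues, and the difference between copy and parent within an array does not depend on a scaling constant. Rps4l, a copy of the X-linked Rps4x that RefSeq annotates as a transcribed pseudogene, had levels of 2.08, 2.22 and 2.86 in KC and 3.55, 4.31 and 5.09 in KCS (1.93 ± 0.43, adjusted p = 0.00805, limma). Rps4x had 8.16, 8.03 and 7.92 in KC and 6.53, 6.26 and 6.55 in KCS (-1.59 ± 0.18). Every KCS array was above every KC array for Rps4l and below it for Rps4x on the 75th percentile scale, and the difference between them rose by 3.52 ± 0.54. The name rule keeps Rps4l, and this was decided with its value known. Rps4l was also higher after quantile normalization (2.0) and with spike-in scaling (4.82).

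Rps27l, a copy of Rps27 that in human cells is a p53 target, went the other way. Its levels were 7.62, 7.51 and 7.37 in KC and 5.63, 5.64 and 5.80 in KCS (-1.81 ± 0.17), and those of Rps27 were 8.51, 8.62 and 8.30 in KC and 7.71, 7.45 and 7.67 in KCS (-0.86 ± 0.18). The difference fell by 0.95 ± 0.11, and after quantile normalization by 1.67, where Rps27l was called lower and Rps27 higher. Rpl22l1, a copy of the tunnel rim gene Rpl22 outside the name rule, had 7.51, 7.47 and 7.48 in KC and 5.52, 5.62 and 5.73 in KCS (-1.86 ± 0.16), and the difference to Rpl22 fell by 0.86 ± 0.11. Rpl36al had 7.17, 7.09 and 6.74 in KC and 5.35, 5.03 and 5.42 in KCS. Rpl36a had 8.32, 8.31 and 8.07 in KC and 6.84, 6.59 and 6.88 in KCS, with a difference that fell by 0.27 ± 0.06. Rpl7l1 had 0.69, 0.93 and 1.08 in KC and -0.57, -0.42 and -0.16 in KCS, and its difference to Rpl7 fell by 0.53 ± 0.14. These 3 copies were lower both on the 75th percentile scale and after quantile normalization (-1.03, -1.07 and -1.30), and higher with spike-in scaling.

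Rpl39l, the copy of Rpl39 that is best known from male germ cells, had -5.39, -5.36 and -5.19 in KC and -4.37, -3.93 and -4.30 in KCS and stood well above background on 0 of 3 KC and 3 of 3 KCS arrays. Its KC level is therefore only a bound. With the KC arrays at the lowest signal well above background no rise is left, so no fold, test or difference to Rpl39 is given. Its fitted value of 1.11 went to -1.34 with normexp background correction, an alternative chosen after seeing the data, and without any 1 KCS array it no longer passed the filter. The 5 pairs measured in both groups each had p = 0.10 in an exact two-sided permutation test of 3 against 3 arrays, the smallest that this design allows, and 0.10 after adjustment over the 5. All 5 differences kept their sign after quantile normalization. Rpl3l, the copy of Rpl3 from striated muscle, and Rpl10l, the copy of Rpl10 from testis, stood well above background on 0 KC arrays, and on 1 and 0 KCS arrays. The Rpl37 probe did so on 0 KC and 2 KCS arrays. These 3 genes were not tested.

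Rps24 had 3 probes above background that are assigned to different transcripts, and they moved in opposite directions. Rps24 is spliced into forms that differ near the 3′ end of the coding sequence. The probe with the highest mean, assigned to NM_207635, had 10.10, 9.96 and 9.89 in KC and 8.21, 7.95 and 7.87 in KCS (-1.97). The probe of NM_207634 had 7.70, 7.19 and 7.05 in KC and 5.84, 5.28 and 5.47 in KCS (-1.78). The probe of NM_011297 had 5.33, 5.16 and 4.60 in KC and 6.78, 6.50 and 6.23 in KCS (1.47), so its KCS arrays all lay above its KC arrays where those of both other probes lay below. Each of the 3 was called when probes were tested singly, with adjusted p of 0.00026, 0.0013 and 0.0032 (limma). Within the arrays the probe of NM_011297 minus that of NM_207634 rose by 3.26 ± 0.18, and minus that of NM_207635 by 3.45 ± 0.18, each with p = 0.10, the smallest possible in the exact permutation test. After quantile normalization the values were 2.17 for NM_011297 beside -1.01 and 0.011, and with spike-in scaling 4.37 beside 1.11 and 0.92. With the mean of the 3 probes Rps24 was at -0.76 on the 75th percentile scale, so that its place among the largest falls rests on the choice of probe. This comparison was chosen after the values had been seen, and the sequences of the probes were not used here.

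**Figure D5:**
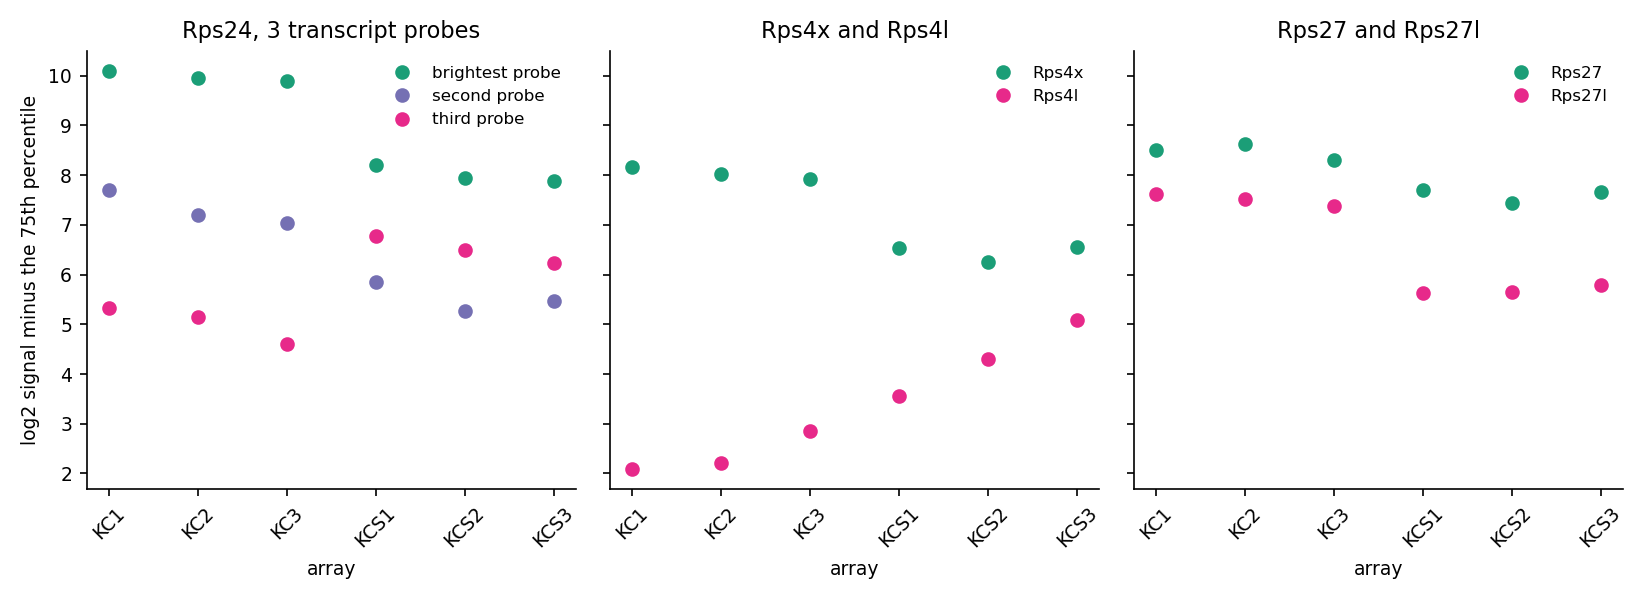
Level (log2 signal minus the 75th percentile) on each array for the 3 Rps24 probes (in the order of the legend NM_207635, NM_207634 and NM_011297), for Rps4x and Rps4l, and for Rps27 and Rps27l. On this scale the NM_011297 probe of Rps24 lies at 4.60 to 5.33 in KC and at 6.23 to 6.78 in KCS, and Rps4l at 2.08 to 2.86 and at 3.55 to 5.09, while Rps27l falls by more than Rps27; the directions of that probe and of Rps4l hold under quantile and spike-in scaling, and that of Rps27l turns with spike-in scaling.

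For the other genes with several probes the probes of a gene mostly moved alike. Of 143 probes 138 were above background on at least 3 arrays. Tested singly on the 75th percentile scale, 134 of these were lower, 3 higher (with Rpl39l, at background on every KC array) and 1 not called. In 44 genes with several such probes the median spread between the fold changes of a gene's probes was 0.20, and it was below 0.5 in 35. The largest spread was that of Rps24 (3.45), followed by Rps20 (1.65), where a dim probe at a mean level of -1.56 was not called and the mean of the probes gave -0.77. Many ribosomal protein genes have processed pseudogenes of near-identical sequence, so that a probe can hold signal from copies.

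Cytosolic ribosomal proteins with other names were lower as well on the 75th percentile scale, in 8 of 8 genes with a median of -1.66, beside 34.4% of all rows. But after quantile normalization 3 were lower and 2 higher, beside 29.3% and 29.1% of all rows. With spike-in scaling 8 were higher, beside 87.2% of all rows. Rpsa, which was first described as a laminin receptor, had 9.45, 9.47 and 9.41 in KC and 7.67, 7.44 and 7.79 in KCS (-1.81 ± 0.17). Fau, whose product carries a ubiquitin-like part, had 8.96, 8.95 and 8.73 in KC and 8.44, 8.17 and 8.15 in KCS (-0.63 ± 0.18), and it was called higher after quantile normalization (1.32). Rack1, a scaffold on the small subunit, had 9.91, 9.77 and 9.68 in KC and 8.35, 8.06 and 8.18 in KCS (-1.59 ± 0.17), with 0.48 after quantile normalization, also called higher.

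The order of the ribosomal proteins and the other lists of the translation machinery depended on the scaling. On the 75th percentile scale the medians of elongation, initiation and other TOP genes were closer to 0 than that of the members, while after quantile normalization they were at -0.39, -0.45 and 0.013, beside 0.015 over the 78 members. With spike-in scaling all 3 lists turned to medians above 0, beside a median of 2.70 over all rows. All rows were called lower in 34.4% and higher in 25.9% on the 75th percentile scale, and in 29.3% and 29.1% after quantile normalization. Of 10 elongation and release factors 9 were lower and none higher (median -1.28), and after quantile normalization 4 were lower and none higher. Eef1b2 and Eef1d, the exchange factors of the elongation factor that delivers aminoacyl-tRNA, had fold changes of -1.64 ± 0.16 and -1.49 ± 0.18. Of 36 initiation factors 24 were lower and 3 higher (median -0.84), and 17 and 3 after quantile normalization. Eif2b4, a subunit of the exchange factor of eIF2, had 4.97, 4.98 and 4.97 in KC and 2.84, 2.62 and 2.93 in KCS (-2.18 ± 0.17), with -2.05 after quantile normalization. Eif3j1 had 3.37, 3.48 and 3.51 in KC and 1.28, 1.40 and 1.47 in KCS (-2.07 ± 0.16, -2.08 after quantile normalization), and Eif4g3, a scaffold of cap binding, had 2.07, 2.0 and 2.28 in KC and 3.0, 3.44 and 2.97 in KCS (1.02 ± 0.21 and 1.01). Of 16 other mRNAs with a TOP, 11 were lower and 2 higher (median -0.96), and 2 and 4 after quantile normalization. Tpt1 had 10.83, 10.81 and 10.60 in KC and 8.87, 8.53 and 8.75 in KCS (-2.03 ± 0.18) but was higher after quantile normalization (0.62), and the poly(A) binding protein gene Pabpc1 had 5.64, 5.64 and 5.60 in KC and 6.06, 6.23 and 6.30 in KCS (0.57 ± 0.16 and 1.23). The call of Pabpc1 was lost when KC3, KCS2 or KCS3 was left out, with adjusted p of 0.0556, 0.0651 and 0.0567 (limma). The lists for initiation, elongation and TOP mRNAs share genes.

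Among the factors that make ribosomes the number of lower genes also moved with the scaling. Of 48 biogenesis factors 30 were lower and 1 higher on the 75th percentile scale (median -0.65), 28 and 1 after quantile normalization (median -0.56), but 11 and 3 with median centring (median -0.29), where 26% of all rows were lower. With spike-in scaling all 48 were higher (median 2.25), beside 87.2% of all rows (median 2.70). Over all rows 34.4% were lower and 25.9% higher on the 75th percentile scale, and 29.3% and 29.1% after quantile normalization. Rrp12, which acts in export of both subunits, had 3.28, 2.95 and 3.21 in KC and 1.67, 1.41 and 1.69 in KCS (-1.56 ± 0.19, and -1.59 after quantile normalization). Mphosph10, a protein of the early small subunit precursor, had 0.75, 0.24 and 0.26 in KC and -1.23, -1.46 and -1.14 in KCS (-1.69 ± 0.21 and -1.65). Eif6, which holds the new large subunit apart from the small one, had 3.34, 3.72 and 3.46 in KC and 4.23, 4.30 and 4.49 in KCS (0.83 ± 0.19 and 0.94) and was the 1 higher factor. Of 20 genes for RNA polymerase I and its factors, which transcribe rRNA genes, 9 were lower and none higher (median -0.47), beside 34.4% of all rows lower, and 7 and none after quantile normalization (median -0.36), beside 29.3%. These counts of lower genes are near the share over all rows, but none of the 20 was higher, beside 25.9% and 29.1% of all rows. Twistnb had 2.42, 1.87 and 1.97 in KC and 0.53, 0.40 and 0.54 in KCS (-1.60 ± 0.20) and Polr2e, a subunit shared by the nuclear RNA polymerases, had 5.59, 5.57 and 5.47 in KC and 4.03, 4.09 and 4.48 in KCS (-1.34 ± 0.19).

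Larp1, which binds the TOP of ribosomal protein mRNAs and represses their translation when mTOR is inactive, had 6.86, 7.07 and 7.15 in KC and 4.61, 4.69 and 4.89 in KCS, with a fold change of -2.30 ± 0.18 on the 75th percentile scale and -1.72 after quantile normalization. Eif4ebp1, the mTOR target that blocks cap binding, had 6.02, 5.78 and 5.92 in KC and 4.03, 3.99 and 4.16 in KCS (-1.85 ± 0.17 and -1.55). Myc, a transcription factor of ribosomal genes, had 2.21, 1.29 and 2.06 in KC and 0.43, 0.91 and 0.73 in KCS (-1.16 ± 0.29 and -1.22). It was also lower on both of these scales, but not called lower with spike-in scaling. Mtor had -0.71, -0.55 and -0.30 in KC and -0.52, -0.38 and -0.92 in KCS (-0.082 ± 0.22, adjusted p = 0.763, limma) and was not called. Of the 12 regulators of ribosomal protein synthesis on this list 5 were lower and none higher (median -0.46), and again 5 and none after quantile normalization. With spike-in scaling 11 were higher, beside 87.2% of all rows, and none of the 12 was called lower. The count of 5 is near the share of lower calls over all rows, 34.4% and 29.3%. Higher calls, absent from this list on both scales, made up 25.9% and 29.1% of all rows. Myc and Mtor were named for their part in this control, after their values were known.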

How the data were processed

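Total RNA of 6 samples, 3 per group, was labelled with Cy3 and hybridised to 1-colour Agilent arrays, per the labels' protocols. The deposited scanner files hold an intensity per spot, in scanner units, as Agilent Feature Extraction 12.0.3.1 wrote it, already background-corrected by that program, per the file headers and the submitters' processing notes. The deposited value table holds log2 values. It matched the scanner values at r of at least 0.999999 once these were scaled to the 75th percentile and each probe was centred on its median over the arrays, with 36110 rows matched, so scale, centring and direction are known. Its column medians lay between -0.05 and 0.10.

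From the intensities the log2 minus each array's 75th percentile over non-control probes was computed. Outlier spots (88 to 140 per array) were left out, spots of a probe were averaged, no spot was saturated, and rows well above background on at least 3 of 6 arrays were kept. Probes were named through RefSeq accessions of GRCm38.p6 (33767 named, 22838 unnamed). The files name another build, so only RefSeq promoters carry coordinates. The probe with the highest mean stood for a gene. KCS was compared with KC over all 27096 rows with limma 3.58.1 in R 4.3.3 (lmFit, eBayes, Benjamini-Hochberg, threshold 0.05), and 3 arrays per group limit the precision. Pairs were compared by exact permutation. Other steps used Python 3.11.15 with scipy 1.17.1, pandas 2.3.3, numpy 2.4.6 and matplotlib 3.10.9. Members, lists, pairs and the naming rule were chosen with earlier results of these data known. Named are, per subunit, the 4 called members with the largest change in each direction and the 2 with the smallest, called members of the MDM2, stalk, exit tunnel and mRNA entry lists, both genes of each measured pair, members below background throughout a group, and up to 3 called genes with the smallest p in each direction per pathway list, of which at most 2 lower and 1 higher are printed. Some items that these rules select are not reported here. The slides hold replicate 1 and replicates 2 and 3. Replicate numbers were not taken as pairs, since deviations of same-numbered samples correlated with r of 0.33, 0.04 and 0.14. Between KC and KCS samples of the same slide r was 0.04 to 0.33, and between slides -0.27 to -0.12. The main fit has no term for the slide. With one, 7272 rows were higher and 9951 lower, and 46 large and 30 small subunit genes were lower. The steps were also run on simulated data of 27096 genes for this comparison. They recovered 0%, 2%, 70% and 96% of 50 genes each changed by log2 0.5, 1, 2 and 4, and called 5 unchanged genes. Far fewer genes were changed there than were called in the data (7017 higher and 9331 lower), so these rates do not carry over to the calls above. Alternatives were other scalings, filters, probe rules, variance models, blocks, slides, memberships and single arrays left out.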

Additional observations from a re-analysis of the deposited data

How the results depend on the processing

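The scaling between arrays decided the direction of most results. Against 46 lower and 1 higher large subunit genes and 30 lower and 1 higher small subunit genes, quantile normalization gave 2 lower and 9 higher, and 4 lower and 10 higher, with medians of -0.025 and 0.082. Spike-in scaling gave 0 lower and 45 higher, and 0 lower and 31 higher, with medians of 1.48 and 1.48, and over all rows 23626 higher and 772 lower instead of 7017 and 9331. Each of these counts of higher large subunit genes includes Rpl39l, at background on every KC array. Median centring gave medians of -1.06 and -1.06. Among the rows called in either direction, the share called higher went from 42.9% to 56.5%, and over all rows tested from 25.9% to 33.8%. Normexp on mean signals was not run, since the files used here hold medians. Normexp on the median signals, chosen after seeing the data, gave medians of -0.67 and -0.69, with 0 large subunit genes higher, Rpl39l at -1.34, and 14889 rows lower. Rpl39l was not among the genes tested or called higher with the filter on all 6 arrays, on the second slide alone or with the copies left out (0 higher large subunit genes each). With the copies left out 0 small subunit genes were higher, and 4123 rows were higher on the second slide alone. Testing every probe singly gave 83 and 51 lower probes and 2 higher small subunit probes, and without a filter on dim probes 24768 rows were lower. Leaving out single arrays gave 4230 to 6626 rows higher (4534 without KCS replicate 1 and 4230 without KCS replicate 2), 7785 to 8633 lower, 0 to 1 higher and 46 lower large subunit genes, 1 higher and 30 lower small subunit genes, and medians of -1.48 to -1.35 and -1.49 to -1.37. Without any 1 KCS array Rpl39l was no longer above background on 3 arrays. With the replicate block 6870 rows were higher and 9581 lower, and the counts of lower members stayed at 46 and 30. With quantile normalization these genes turned sign: Rpl41 0.15, Rpl7 0.58, Rpl19 0.43, Rps24 0.011, Rps18 0.61, Rps3 0.33, Rps27 0.70, Rpl11 0.36, Rpl26 0.0097, Rps14 0.26, Rps20 0.57, Rps26 0.43, Rps27a 0.29, Rplp0 0.13, Rplp2 0.71, Rpl39 0.52, Rpl35 0.14, Rpl31 0.38, Rps2 0.046 and Tpt1 0.62. With spike-in scaling these did: Rpl32 0.64, Rpl41 0.65, Rpl4 0.86, Rpl32l 0.86, Rpl7 2.14, Rpl19 2.13, Rps24 0.92, Rps18 1.03, Rps28 1.08, Rps3 2.05, Rps27 2.03, Rpl5 1.59, Rpl11 1.39, Rpl23 1.35, Rpl26 1.86, Rps7 1.61, Rps14 1.30, Rps15 1.24, Rps20 1.52, Rps25 1.09, Rps26 1.86, Rps27a 1.32, Rps27l 1.09, Rplp0 1.36, Rplp1 1.10, Rplp2 1.46, Rpl12 0.97, Rpl17 1.67, Rpl39 1.82, Rpl23a 1.86, Rpl35 0.88, Rpl22 1.89, Rpl31 1.48, Rps2 1.79, Rpl36al 1.17, Rpl36a 1.43, Rpl22l1 1.04, Rpl7l1 1.61, Rps4x 1.31, Rpsa 1.08, Eef1b2 1.25, Eef1d 1.40, Eif2b4 0.72, Eif3j1 0.83, Tpt1 0.86, Rrp12 1.34, Mphosph10 1.20, Twistnb 1.30, Polr2e 1.55, Larp1 0.60 and Eif4ebp1 1.05. These lists of turned signs do not cover every gene described above, and leave out Myc, Mtor, Fau and Rack1 among others. Array signal near background limits Rpl39l, Rpl3l, Rpl10l and Rpl37.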

Other observations

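The name rule sets aside the S6 kinases, which phosphorylate the ribosomal protein Rps6 or belong to the same family. Of 10 tested on the 75th percentile scale 4 were higher in KCS and 3 lower, beside 25.9% and 34.4% of all rows, so the counts are near those over all rows. After quantile normalization 9 of the 10 had the same sign. Rps6kb1, the main S6 kinase downstream of mTOR, fell by 1.65 ± 0.24 (SE) on the log2 scale, and Rps6ka6 by 3.37 ± 0.38. Rps6ka4 rose by 1.68 ± 0.22 and Rps6ka5 by 1.99 ± 0.45. With spike-in scaling Rps6kb1 was at 1.24 and Rps6ka6 at -0.47, so the sign of Rps6kb1 turned. Probes named for 3 ribosomal pseudogenes were all lower on the 75th percentile scale: Rpl34-ps1 at -1.39, Rps15a-ps6 at -1.18 and Rpl31-ps12 at -1.13. After quantile normalization they were at -0.81, -0.90 and 0.026, and with spike-in scaling at 1.5, 1.72 and 1.76.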
